A study of Mus musculus with 12 samples.

Results

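Primary mouse embryonic fibroblasts (MEFs) carrying the 3KR form of E2F1 were compared with wild-type MEFs after both had been exposed to neocarzinostatin (NCS), a radiomimetic drug that breaks DNA strands. The samples were chosen by their titles, which name 3 NCS-treated 3KR samples and 3 NCS-treated wild-type samples, 6 of the 12 in the series. Of 37991 Ensembl identifiers in the count files, 30594 were autosomal, and 14248 of these passed a filter on low counts and were tested. The filter was applied to all 12 samples. Another 8797 autosomal genes had 0 counts in every sample, and 7549 had counts but did not pass, with mean levels of at most 13.1 normalized counts. At the edge of the filter, Rasgrf1 passed with 0.268 CPM (counts scaled to equal library totals) in the lowest of its 3 highest samples, and Slc10a1 missed it with 0.265 CPM.

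The study asked how acetylation of the transcription factor E2F1 helps to bring histone acetyltransferases to DNA breaks. The 3KR allele replaces the 3 acetylated lysines of E2F1 with arginine, and it was introduced into FVB mice by zinc-finger nuclease injection, with the line going back to 1 correctly targeted founder. Homozygous E2f1 3KR/3KR and wild-type embryos, both FVB, were taken at day 13.5, and MEFs at passage 3 received 250 ng/ml NCS for 3 h or no drug. RNA sequencing covered 3 samples of each genotype and treatment. The counts on genes were 38106188, 42533960 and 39194405 in the NCS-treated wild-type samples and 38041722, 33203757 and 37205651 in the NCS-treated 3KR samples. Genes with at least 1 count numbered 19644, 19760 and 19662 in the former and 19542, 19377 and 19541 in the latter. The labels number the samples of a group from 1 to 3 and do not say whether the numbers stand for separate embryos. The study describes its replicates as independent experiments, without saying what was separate for these samples. The p-values below measure the spread between these samples.

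Division by DESeq2 size factors gave the normalized counts used here, which can be compared between samples but not between genes. Wild-type sample 3 stood apart from the other wild-type samples. After NCS, its chi-square distance per gene was 7.59 from sample 1 and 8.14 from sample 2, against 2.25 between samples 1 and 2 and at most 2.33 between 3KR samples. On the first principal component of the 6 NCS samples, which held 70.9% of the variance, all 3 wild-type samples still lay together at -33.5, -34.1 and -34.3, and the 3KR samples at 33.7, 34.0 and 34.2. Among untreated wild-type samples, sample 3 was likewise at a distance of 9.40 and 9.29 from samples 1 and 2, which were 2.26 from each other. Some counts of called genes are also given without wild-type sample 3.

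The sex of the cells differed with the genotype. Xist, the RNA that coats the inactive X chromosome, had 62.5, 32.3 and 44.8 normalized counts in the NCS-treated wild-type samples and 35635, 34507 and 35126 in the 3KR samples. The Y-linked gene Ddx3y had 5822, 5764 and 5456 in wild-type and 16.2, 7.0 and 10.3 in 3KR samples. Eif2s3y, another Y-linked gene, had 2803, 2832 and 2783 against 8.10, 9.33 and 5.17. Kdm5d and Uty followed the same pattern, with at most 9.33 normalized counts in any 3KR sample. Every 3KR sample thus had the RNA pattern of female cells and every wild-type sample that of male cells. Sex and genotype cannot be told apart in these samples, and leaving out the X and Y chromosomes does not change this for autosomal genes that respond to sex.

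E2F1 is a transcription factor that drives genes of DNA replication and the entry into S phase, is held in check by the retinoblastoma protein, and is stabilized and modified after DNA damage. Double-strand breaks activate the kinase ATM and the transcription factor p53, which induces arrest and death genes, while homologous recombination and end joining repair the breaks. MEF cultures are grown from most of the embryo body, so that they hold fibroblasts of many positions, which keep part of their positional Hox code in culture, and a few cells of other types.

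The mutated gene came first. E2f1 had 1173, 1261 and 1277 normalized counts in wild-type and 1259, 1167 and 1243 in 3KR samples after NCS. The groups overlapped (log2 fold change -0.02, SE 0.0627, adjusted p = 0.863 by edgeR). Since the allele is a change of codons, the level of the RNA does not check the label. Within 5 genes on each side of E2f1 on chromosome 2, Necab3 was lower in 3KR cells (-1.13) and Cdk5rap1 higher (0.31), and the other 8 were not called. The p53-related gene Trp73 had 7.18, 1.84 and 0.995 normalized counts in wild-type and 3.04, 0 and 2.07 in 3KR samples, too few for a test. Apaf1, which activates caspases, had 4951, 4894 and 4783 in wild-type and 4854, 4871 and 4756 in 3KR samples, and these overlapped as well.

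Among genes for the proteins that the study places at breaks, the acetyltransferase genes differed little between genotypes. Ep300, which encodes p300, had 3784, 3723 and 3896 normalized counts in wild-type and 3581, 3587 and 3447 in 3KR samples after NCS. Every 3KR sample was below every wild-type sample, but the difference was small (log2 fold change -0.10, adjusted p = 0.0413 by edgeR) and its call was lost in 7 alternative fits, among them that without NCS-treated wild-type sample 3. Its paralog Crebbp had 1647, 1619 and 1781 against 1809, 1829 and 1759.7, with overlapping groups and no call (adjusted p = 0.263). Kat5, the gene for TIP60, had 888, 831 and 877 against 899, 963 and 912 (0.10, adjusted p = 0.196), where overlapping reads of Rnaseh2c on the other strand may be included. Smarca4, the ATPase of the SWI/SNF remodeler, and the MRN subunit gene Nbn were not called either (adjusted p = 0.800 and 0.708). Mre11a, the nuclease of MRN, had 966, 939 and 1017 against 1094, 1078 and 1036 normalized counts (0.14, adjusted p = 0.0351). Its 3KR samples lay above the wild-type samples, with a call lost in 6 alternative fits and with Ankrd49 on the opposite strand.

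Across the genome, the genotypes differed widely and mostly by small amounts. Each gene was tested for a difference between 3KR and wild-type after NCS in edgeR, by a quasi-likelihood F test, and a gene was called at an adjusted p under 0.05. Of the 14248 autosomal genes, 6770 were called (47.5%), 3329 higher (23.4%) and 3441 lower (24.2%) in 3KR cells. Counts of the gene lists below are to be read beside these shares. Without any 1 of the 6 NCS-treated libraries, between 5970 and 6490 were called. The median log2 fold change was 0.00 over all genes tested, 0.34 over those called higher and -0.32 over those called lower. Of the called genes, 4384 (64.8%) differed by less than 0.50 on the log2 scale. A difference of more than 2-fold was seen for 1136 called genes (7.97% of those tested), 559 higher (3.92%) and 577 lower (4.05%). Log2 fold changes above 3 numbered 37, and those under -3 numbered 19.

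The level of a gene bore on both its call and the size of its difference. Among the 3562 genes with the lowest mean normalized counts, 30.9% were called and 19.3% differed over 2-fold. Among as many genes with the highest means, 59.0% were called and 1.54% differed over 2-fold, with 809 genes higher and 1291 lower. Lists of highly expressed genes should be read with this in mind. Called genes were spread over all autosomes, from 41.2% on chromosome 17 to 53.4% on chromosome 1. Of the called genes, 1192 (17.6%) overlap a gene on the opposite strand. The libraries were prepared to keep the strand, but whether the counting used it is not stated, so values of such genes are uncertain. Many are pointed out where they are named, and Adamts9, Ccn2, Csf1r, Csnk1e, Cxcl10, Gadd45a, Hoxd3, Irf7, Map2, Necab3, Pdgfa and Pfkm are also among them.

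The largest increases in 3KR cells included genes of secreted signals, limb transcription factors and matrix proteins, a grouping made after the genes were seen. The 12 highest and 12 lowest fold changes among called genes with a mean of at least 100 normalized counts were taken, provided that the groups did not overlap. Cxcl5, a chemokine that attracts neutrophils, had 219, 230.5 and 195 normalized counts in wild-type and 4153, 4016 and 4174 in 3KR samples. Each 3KR sample was far above all wild-type samples (log2 fold change 4.26, SE 0.0606, adjusted p = 2.41e-24 by edgeR). Thbs4, a thrombospondin of tendon and muscle matrix, had 52.3, 40.6 and 46.8 against 804, 837 and 789.9 (4.12). Rab3c, a GTPase of secretory vesicles, had 14.4, 17.5 and 22.9 against 307, 236 and 264 (3.87). Tbx4, a T-box factor of the hindlimb bud, rose from 36.9, 56.2 and 45.8 in wild-type samples to 708, 657 and 616 in 3KR samples (3.82, adjusted p = 5.90e-18). The wild-type counts of these genes were low but present in every sample.

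Pitx1, which lies upstream of Tbx4 in the hindlimb, had 48.2, 59.0 and 65.7 normalized counts in wild-type and 636, 614 and 707 in 3KR samples (3.50, adjusted p = 7.60e-18 by edgeR). Tbx5, the T-box factor of the forelimb bud, had 65.6, 61.8 and 50.7 against 392, 463 and 416 (2.83). Genes of both limb pairs were thus higher in all 3KR samples. Cxcl1, a neutrophil chemokine like Cxcl5, had 44.1, 38.7 and 31.8 against 382, 389 and 423 (3.38). Tnn, the gene for the matrix protein tenascin-N, had 666, 732 and 666 against 6915, 6796 and 6685 (3.30, adjusted p = 7.72e-25). The spread within groups was small beside the gap between them for each of these genes. Among the others were the secreted lectin gene Clec11a (3.56), the carboxypeptidase-like gene Cpxm2 (3.24), the alcohol dehydrogenase gene Adh1 (3.23) and the prostaglandin F receptor gene Ptgfr (2.88), none of them with overlap between groups.

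The largest decreases included neural genes and genes of the neural crest lineage, likewise grouped after they were seen. Crmp1, which mediates semaphorin signals in growing axons, had 793, 785 and 767 normalized counts in wild-type and 61.8, 80.5 and 58.9 in 3KR samples. All 3KR samples lay far lower (-3.55, SE 0.106, adjusted p = 3.43e-18 by edgeR). Nefm, a neurofilament gene, had 883, 913 and 856 against 105, 104 and 80.6 (-3.19), and annotated transcripts of Nefl overlap it on the other strand. Foxd3 and Sox10 are transcription factors of neural crest cells and their glial descendants. Foxd3 had 449, 402 and 457 against 70.9, 59.5 and 70.3 (-2.69), and Sox10 had 1451, 1526 and 1556 against 245, 274 and 215 (-2.63, adjusted p = 1.87e-19). Erbb3, the neuregulin receptor of Schwann cells, had 1043, 1089.7 and 1016 against 184, 165 and 182 (-2.57). In each case the highest 3KR sample was under the lowest wild-type sample.

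Other large decreases came from regulatory, matrix and vascular genes. Foxd1, a forkhead factor of kidney stroma and craniofacial mesenchyme, had 1886, 2056 and 2179 normalized counts in wild-type and 299.8, 309 and 322 in 3KR samples (-2.72, adjusted p = 1.53e-20 by edgeR). Col14a1, a collagen that sits on the surface of fibrils, had 8842, 8782 and 8407 against 1353, 1374 and 1380.3 (-2.66, adjusted p = 8.62e-25). The groups were far apart for both genes. Angpt2, an antagonist ligand of the vascular receptor Tie2, had 3309, 3328 and 3342 against 541, 560.0 and 589 (-2.56). The set also held the ubiquitin ligase gene Hecw1 (-2.66) and the receptor gene Gpr17 (-2.93), which overlaps Lims2 on the opposite strand.

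**Figure D1:**
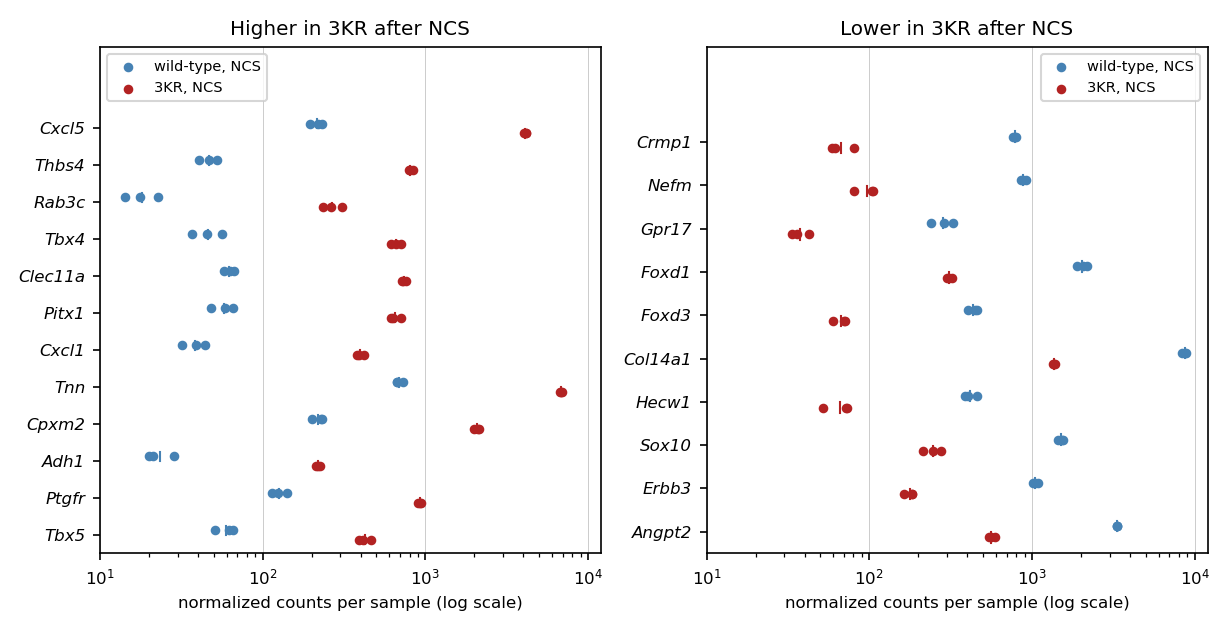
Normalized counts on a log scale for the 12 genes with the largest increases and for 10 of the 12 with the largest decreases in NCS-treated 3KR against wild-type MEFs, with 1 point per sample and ticks at group means. The 3 samples of a genotype lie close together and apart from the other genotype for every gene, as for Cxcl5 with a log2 fold change of 4.26 and Crmp1 with -3.55.

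Of the genes over 2-fold higher in 3KR cells, the 5 with the most counts were taken, and matrix genes led. Postn, the gene for periostin, had 57904, 56741 and 58216 normalized counts in wild-type and 174314, 171514 and 170302 in 3KR samples (1.58, SE 0.0225, adjusted p = 2.41e-24 by edgeR). Chains of collagen VI, which forms beaded microfibrils around cells, were higher together. Col6a3 had 23257, 23546 and 22395 against 73636, 74868 and 73259.8 (1.68), and Col6a2 had 35417, 36013 and 32997 against 71594, 74517 and 71899 (1.06). Il1rl1, the receptor of interleukin-33, had 10895, 10916 and 11503 against 45536, 44566 and 45086 (2.02). No sample of these groups overlapped, and the matrix gene Ccdc80 was higher as well (1.10).

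The 5 genes with the most counts among those over 2-fold lower in 3KR cells were more mixed in function. Slc20a1, a phosphate transporter gene, had 48971, 49742 and 53228 normalized counts in wild-type and 19971, 20090.3 and 19584 in 3KR samples (-1.35), with 9830144P21Rik on the opposite strand. Ptgs2, the inducible cyclooxygenase, had 42833, 42455 and 44755 against 20924, 21444 and 20952 (-1.04, adjusted p = 9.86e-13 by edgeR). Nes, an intermediate filament of neural progenitors and many cultured mesenchymal cells, had 31769, 31409.7 and 34273 against 12748, 12951 and 12777 (-1.34). For all of them the 3KR samples were within a few percent of each other. Col2a1, the main collagen of cartilage, had 23471, 23769 and 25855 against 11512, 11932 and 11632 (-1.06), and the basement membrane collagen Col18a1 differed by -1.06.

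Among tested genes, which had to pass the filter through at least 1 group, 4 were at 0 in all NCS-treated samples of 1 genotype. Icos, Fam135b and Ccr2 had 0 counts in all NCS-treated wild-type samples and low levels in 3KR samples. Icos, a costimulatory receptor of T cells, had 17.2, 16.3 and 15.5 normalized counts in the 3KR samples. Ccr2, the receptor of Ccl2 on monocytes, had 12.2, 16.3 and 17.6, and Fam135b had 8.10, 5.83 and 13.4. Anxa10 was the only tested gene at 0 in all NCS-treated 3KR samples, with 7.18, 3.69 and 4.98 in wild-type. These 4 genes were picked out after their values were seen.

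Marker genes of cell types were examined next, since fewer cells of a type and less RNA per cell cannot be told apart in bulk samples. Over all autosomal genes, 23.4% were called higher and 24.2% lower. Fibroblast and mesenchyme markers were high in every sample. All 13 members were tested, and their summed normalized counts were 1752617, 1775393 and 1723408 in wild-type and 1949914, 2031081 and 1948101 in 3KR samples, led by Col1a1. Of these, 10 were higher and 1, Vim (-0.07), was lower in 3KR cells. Macrophage markers were all tested, and 14 of 19 were higher in 3KR cells with none lower. Their sums were 7676, 7919 and 7024 in wild-type against 11443, 11689 and 11336 in 3KR samples, 1.52-fold higher, and Lyz2, a lysozyme gene, led with 2702, 2820.2 and 2325 against 3622, 3658 and 3608. Csf1r, the receptor on which macrophages depend, differed by 1.13.

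Schwann cell and neural crest markers differed the other way. Of 15 on the list, 13 were tested, 9 were lower and 2, Mbp (0.51) and Pmp22 (0.43), were higher. The list summed to 15980, 15780 and 15254 normalized counts in wild-type and 6898, 6747 and 6818 in 3KR samples. Pmp22, which fibroblasts also express, held the most counts and was 2334, 2243 and 2215 against 3051, 2994 and 3086. Neuron markers summed to 8959, 8560 and 8383 against 5512, 5480 and 5201, led by Map2. Of 14, 8 were tested, 6 were lower and Map2 was higher (0.17), while Rbfox3, which marks mature neurons, had 0 counts in all 6 samples. Skeletal muscle markers summed to 5684, 5507 and 5591 against 2301, 2274 and 2400, led by Des, with 10 of 15 tested and 5 lower (Des, Chrna1, Acta1, Myh3 and Tnni1). The determination factors Myf5 and Myf6 were at 0 in all 6 samples.

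Endothelial markers summed to 4484, 4507 and 4624 normalized counts in wild-type and 7454, 7423 and 7427 in 3KR samples, but this rested on Flt1, with 3657, 3788 and 3889 against 6537, 6499 and 6544. Of 13, 9 were tested, Flt1 and Erg were higher, and Emcn, Esam and Sox18 were lower, with Tie1 and Sox17 at 0. These counts were close to the shares of 23.4% and 24.2% over all autosomal genes. Cartilage markers summed to 26582, 26856 and 29055 against 17255, 18134 and 17642, led by Col2a1. The lower 3KR sums rested on Col2a1, with 23471, 23769 and 25855 against 11512, 11932 and 11632. The other cartilage markers together were higher in 3KR samples. Of 11, 9 were tested, 4 were higher (Sox9, Acan, Comp and Hapln1) and 3 lower (Sox5, Col2a1 and Col11a2). The epithelial list had 5 of 14 members tested, with Cdh1 and Krt8 higher, Krt18 and Krt19 lower, Krt19 as its leading gene, and Esrp1 and Grhl2 at 0. Its sums were 609, 602 and 602 against 391, 494 and 397. The lower 3KR sums rested on Krt19, with 502, 472 and 493 against 289, 351 and 284. All 7 mesothelial markers were tested and summed to 729, 761 and 786 against 749, 824 and 794, again led by Krt19. Msln, Lrrn4 and Bnc1 were higher and Krt19 was lower. The mesothelial markers other than Krt19 together were higher in 3KR samples. Erythroid genes were too low for a test, with sums of at most 12 normalized counts in the 6 NCS samples, Alas2 leading, and Hba-a2, Hbb-bt, Hbb-bs and Hbb-y at 0 in all 12 samples. The part of these cell types in the differences between genotypes was not tested.

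Cell cycle genes formed the most uniform group. Genes of DNA replication and the G1/S transition license origins, unwind DNA and supply nucleotides, and many are E2F targets. Of 44 such genes tested, 37 were higher and 1 was lower in 3KR cells, with a median log2 fold change of 0.36 beside 0.00 over all genes. Mcm3 and Mcm5 encode subunits of the replicative helicase. Mcm3 had 2146, 2191 and 2230.0 normalized counts in wild-type and 2979, 3081 and 2954 in 3KR samples (0.46, adjusted p = 4.00e-10 by edgeR), and Mcm5 had 2002, 2245 and 2147 against 3005, 3093 and 3053 (0.52). No 3KR sample reached down to the wild-type range. Ccne1, the gene for cyclin E1, was the member that was lower (-0.15), and 3 alternative fits did not call it. The lower count was 0 without NCS-treated wild-type sample 3, and 2 without NCS-treated wild-type sample 2 and with a block for the replicate number.

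All 36 genes of the G2/M and mitosis list were higher in 3KR cells, with a median of 0.51. Mki67, the gene of the proliferation marker Ki-67, had 2625, 2525 and 2532 normalized counts in wild-type and 4176, 4175 and 3982 in 3KR samples (0.68, adjusted p = 7.37e-13 by edgeR). Bub1b, a kinase of the spindle checkpoint, had 885, 833 and 916 against 1466, 1470.1 and 1459.9 (0.74, adjusted p = 7.38e-12). For both genes the groups were well apart. The members ranged from 0.24 for the cytokinesis gene Anln to 0.82 for the kinetochore gene Cenpf, extremes named after their values were seen. Each alternative fit called all 36 genes higher.

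Genes of E2F and its partners changed less uniformly. Of 18 tested, 8 were higher and 2 lower, with a median of 0.15. Tfdp1, the dimer partner of the E2Fs, had 5603, 5473 and 5548 normalized counts in wild-type and 7142, 7188 and 7071 in 3KR samples (0.36). E2f7, a repressor that is itself an E2F target, had 637, 621 and 731 against 1015, 884 and 837 (0.46). Both were higher in each 3KR sample. Rb1, the retinoblastoma gene, had 1104, 1128 and 1180.2 against 801, 947 and 862 (-0.39) and lay wholly lower, and E2f5 was lower too (-0.30), although both overlap genes on the opposite strand. Of 24 acetylation and break chromatin factors, 11 were higher, among them the checkpoint scaffold genes Topbp1 (0.28) and Mdc1 (0.33), and only Ep300 was lower, with a median of 0.10. The lower count was 0 without NCS-treated 3KR sample 1 or 2, 2 without NCS-treated wild-type sample 2 and with a block for the replicate number, and 3 without both wild-type samples numbered 3. It was 0 as well without a low-count filter and with a filter on a mean of at least 10 counts. Double-strand break repair genes numbered 47 tested, 26 higher and 1 lower, with a median of 0.22. The lower count was 0 without NCS-treated 3KR sample 2, and 2 without NCS-treated 3KR sample 1, without both wild-type samples numbered 3, with the 6 samples alone and with a block for the replicate number. Exo1, the resection exonuclease, differed by 0.54 and Fanca, a Fanconi anemia core gene that overlaps Zfp276, by 0.54, while Lig4, the ligase of end joining, was the lower one (-0.22).

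Targets of p53 leaned the other way. Of 34 tested, 19 were lower and 4 higher in 3KR cells, with a median of -0.13. Pmaip1, the gene of the death protein Noxa, had 3837, 3753 and 3519.6 normalized counts in wild-type and 1056, 1013 and 1072 in 3KR samples (-1.82, adjusted p = 2.36e-17 by edgeR). Cdkn1a, which encodes the cell cycle inhibitor p21, had 38956, 39929 and 39430.1 against 24800.3, 24533 and 25138 (-0.67, adjusted p = 1.65e-15). In both, 3KR samples were lower throughout. Mdm2, which targets p53 for degradation, was also lower (-0.66), as was the desmosomal gene Perp (-1.54), both chosen after their values were seen. The 4 higher genes were Gadd45a (0.32), Ckap2 (0.21), Gtse1 (0.16) and Sesn2 (0.10), and the higher count was 2 without NCS-treated 3KR sample 2. Of 25 genes of the BCL2 family and caspases, 5 were higher and 7 lower, close to the shares of 23.4% and 24.2% over all autosomal genes, with a median of -0.02. The death-promoting Bcl2l11 (-0.47) and the death-blocking Bcl2l1 (-0.42) were both lower, and Birc2, Birc3, Casp1, Casp2 and Casp9 were higher, Birc3 by 0.38 and Casp2 by 0.25.

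Promoters of the cell cycle genes are shown because these genes moved together and the E2F site is a known short sequence. RefSeq promoters on GRCm38.p6, 250 bases before to 50 after a start, were found for 10704 of the 14248 tested genes, 13692 promoters in all. The E2F motif was searched as TTTCCCGC or TTTGGCGC on both strands. It was present in 2.70% of these promoters, 3.91% of those of genes called higher, 1.52% of those of genes called lower and 2.71% of those not called. Of promoters of genes over 2-fold higher it was in 0.833%, and of those over 2-fold lower in 1.14%. Among DNA replication genes, 11 of 42 promoters held it, and among G2/M genes none of 32. A search for the cell cycle homology region, TTTGAA on both strands, was added after the data were seen, and it does not overlap the E2F motif. It was in 11.9% of promoters, 14.7% for genes called higher, 10.5% for genes called lower, 15.0% and 12.9% for those over 2-fold higher and lower, and 23 of 32 (71.9%) for G2/M genes. Such matches describe letters and do not show binding. The promoters of Mcm3 (chr1:20820263-20820562, minus strand) and Mcm5 (chr8:75109259-75109558, plus strand) have the E2F motif in capitals, and those of Bub1b (chr2:118597961-118598260, plus strand) and Mki67 (chr7:135716330-135716629, minus strand) have TTTGAA or its reverse complement in capitals, each written 5′ to 3′ on the strand of its gene.
Mcm3: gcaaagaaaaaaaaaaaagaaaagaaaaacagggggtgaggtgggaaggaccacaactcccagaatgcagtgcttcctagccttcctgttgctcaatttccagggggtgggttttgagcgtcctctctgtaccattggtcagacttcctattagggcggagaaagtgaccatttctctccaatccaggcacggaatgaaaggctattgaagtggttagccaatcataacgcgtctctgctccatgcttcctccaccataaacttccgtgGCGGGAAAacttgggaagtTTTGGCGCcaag
Mcm5: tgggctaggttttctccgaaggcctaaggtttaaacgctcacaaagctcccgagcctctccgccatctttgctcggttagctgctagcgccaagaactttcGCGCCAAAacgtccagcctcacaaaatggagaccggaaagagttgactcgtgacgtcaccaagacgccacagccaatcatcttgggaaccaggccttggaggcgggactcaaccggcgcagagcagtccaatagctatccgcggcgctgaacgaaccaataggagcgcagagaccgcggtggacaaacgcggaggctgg
Bub1b: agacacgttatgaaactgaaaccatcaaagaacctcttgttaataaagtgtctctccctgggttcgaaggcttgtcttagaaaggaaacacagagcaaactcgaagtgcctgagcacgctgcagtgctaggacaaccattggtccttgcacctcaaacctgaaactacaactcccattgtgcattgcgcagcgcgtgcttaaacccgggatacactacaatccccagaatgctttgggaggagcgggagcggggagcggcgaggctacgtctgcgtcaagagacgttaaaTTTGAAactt
Mki67: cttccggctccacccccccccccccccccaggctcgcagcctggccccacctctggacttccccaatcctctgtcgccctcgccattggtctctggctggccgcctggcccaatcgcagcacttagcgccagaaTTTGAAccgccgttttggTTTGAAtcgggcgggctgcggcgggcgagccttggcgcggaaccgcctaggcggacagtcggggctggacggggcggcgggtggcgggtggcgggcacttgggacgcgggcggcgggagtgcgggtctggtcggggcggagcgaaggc

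Genes that interferons induce were among the groups with the largest differences. They encode sensors of foreign RNA, antiviral enzymes and parts of antigen presentation. Of 48 tested, 39 were higher and 2 lower in 3KR cells, 26 of them over 2-fold higher, with a median log2 fold change of 1.02. Lgals3bp, a secreted glycoprotein gene, had 1787, 1693 and 1687 normalized counts in wild-type and 4037, 3955 and 4102 in 3KR samples (1.23, adjusted p = 5.58e-18 by edgeR). Ifi27 had 1378, 1471 and 1313 against 2981, 3007 and 2925 (1.10). Every 3KR sample was higher for both. The 2 lower genes encode GTPases that interferon-gamma induces, but others of this kind, such as Igtp (1.20) and Gbp7 (0.51), were higher. Irgm1 had 1839, 1892 and 1977 against 1147, 1163 and 1092 (-0.75), and Gbp2 had 772, 740.3 and 704 against 404, 376 and 389 (-0.92), with the 3KR samples lower throughout. The largest difference, at low counts, belonged to the antiviral gene Mx1, with 2.05, 5.53 and 3.98 against 38.5, 26.8 and 44.5 (3.19). Ifit1 (1.99), Oas3 (2.29) and the interferon regulatory factor gene Irf7 (1.98) were also higher, and these, Igtp and Gbp7 were named after their values were seen. Paralogs such as Oas1a and Oas1b or Ifit3 and Ifit3b are alike in sequence, so reads may be shared or lost between them.

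The interferon-stimulated response element was searched as GAAANNGAA on both strands. It was found in 7.07% of the promoters of tested genes, 8.73% for genes called higher, 14.4% for those over 2-fold higher, 5.62% for genes called lower and 6.45% for those over 2-fold lower. For the interferon-stimulated list, 24 of 43 promoters (55.8%) held it. The promoters of Ifit1 (chr19:34640639-34640938, plus strand) and Oas3 (chr5:120777610-120777909, minus strand), both higher in 3KR cells, are set beside that of Irgm1 (chr11:48871371-48871670, minus strand), which was lower although its window holds the element too. Capitals mark the element or its reverse complement, and overlapping matches run together.
Ifit1: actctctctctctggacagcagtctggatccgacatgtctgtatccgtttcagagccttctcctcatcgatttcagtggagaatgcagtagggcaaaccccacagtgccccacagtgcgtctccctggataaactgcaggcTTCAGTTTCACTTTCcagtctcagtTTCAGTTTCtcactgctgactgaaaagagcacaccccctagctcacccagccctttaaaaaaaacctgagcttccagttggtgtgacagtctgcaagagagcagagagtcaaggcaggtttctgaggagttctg
Oas3: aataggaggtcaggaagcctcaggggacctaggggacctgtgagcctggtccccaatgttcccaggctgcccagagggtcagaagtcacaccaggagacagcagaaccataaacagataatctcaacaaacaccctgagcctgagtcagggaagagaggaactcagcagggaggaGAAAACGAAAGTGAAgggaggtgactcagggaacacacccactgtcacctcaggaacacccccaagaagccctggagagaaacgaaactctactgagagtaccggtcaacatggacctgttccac
Irgm1: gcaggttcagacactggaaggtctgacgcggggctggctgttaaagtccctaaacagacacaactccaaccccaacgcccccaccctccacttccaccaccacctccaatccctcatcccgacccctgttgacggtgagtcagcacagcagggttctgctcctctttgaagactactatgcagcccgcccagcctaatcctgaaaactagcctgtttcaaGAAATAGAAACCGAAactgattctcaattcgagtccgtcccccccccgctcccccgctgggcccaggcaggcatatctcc

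Chemokines, cytokines and genes of NF-kappaB showed large differences in both directions. Of 34 tested, 23 were higher and 6 lower, with a median of 0.55. Beside Cxcl5 and Cxcl1, the neutrophil chemokine Cxcl2 (3.01), the interferon-induced Cxcl10 (2.66) and the cytokine Il6 (1.08) were higher, the last 3 chosen after their values were seen. Il33, an alarmin held in the nucleus, had 527, 551 and 491 normalized counts in wild-type and 126, 140.0 and 157 in 3KR samples (-1.89, adjusted p = 1.98e-13 by edgeR). The ligand was thus lower in the cells where its receptor Il1rl1 was higher. Il11, a cytokine of the interleukin-6 family, had 2672, 2705 and 2990.2 against 1284, 1443 and 1414 (-1.02), also without overlap. Complement genes were split, with 6 higher and 7 lower of 16 and a median of 0.06. The anaphylatoxin receptor C5ar1 (1.48) and the protease C1ra (1.06) were higher, and the inhibitor Cd59a (-0.67) was lower. The lower count was 3 without NCS-treated 3KR sample 3, and 4 without NCS-treated wild-type sample 1 or 2.

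Matrix genes differed in both directions. Of 40 collagen genes, 15 were higher and 16 lower, with a median of 0.00. Collagen VI chains were higher, Col6a1 by 0.93, while the basement membrane chain Col4a1 was lower, with 143526, 143995 and 145861 normalized counts in wild-type and 73410.5, 76339 and 74072 in 3KR samples (-0.95). Col4a1 shares its promoter region with Col4a2 on the opposite strand, and both were lower. Of 42 matrix glycoproteins and proteoglycans, 21 were higher and 12 lower, with a median of 0.11. Their lower count was close to the share of 24.2% over all autosomal genes. Prelp, a leucine-rich proteoglycan gene, differed by 2.55 and Efemp1, a fibulin gene, by -1.62. Fn1, the gene for fibronectin, had 605957, 609823 and 577406 against 422578, 430736 and 423116 (-0.49) and was lower in every 3KR sample, with Apol7d on the other strand.

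Genes for the adhesion of cells to basement membranes were mostly lower in 3KR cells. Of 33 genes of laminins, nidogens and integrins, 18 were lower and 3 higher, with a median of -0.26. Itga2, the alpha 2 chain of a collagen receptor, had 830.3, 762 and 863 normalized counts in wild-type and 209, 199.5 and 208 in 3KR samples (-1.99, adjusted p = 4.31e-16 by edgeR). Its groups were far apart. Agrn, a basement membrane proteoglycan gene, was lower (-0.81), and Lama4 (0.78), Lamc1 (0.18) and Itgb7 (0.99) were the higher ones. Among 35 matrix proteases and their inhibitors, 12 were higher and 14 lower, with a median of 0.02. The procollagen protease Adamts2 (1.02) and the aggrecan-degrading Adamts9 (1.51) were higher, and the gelatinase Mmp2 (-0.78) and the inhibitor Timp3 (-0.98) were lower, with Timp3 lying in an intron of Syn3 on the opposite strand.

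Contractile genes and targets of SRF and YAP were mostly lower. Of 26 tested, 17 were lower and 3 higher, with a median of -0.24. Des, the muscle intermediate filament, had 4711, 4584 and 4529 normalized counts in wild-type and 1535, 1560.0 and 1603 in 3KR samples (-1.56). Ccn2, a YAP target also known as connective tissue growth factor, had 67475, 69292 and 67500.4 against 41542, 41596 and 40716 (-0.72, adjusted p = 4.68e-16 by edgeR). All 3KR samples were lower for both. The smooth muscle myosin gene Myh11 (0.58), Synpo2 (0.23) and the myosin light chain kinase gene Mylk (0.11) were higher, and the higher count was 1 without NCS-treated 3KR sample 1 or 2 or wild-type sample 1, and by the Wald test.

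Hox genes differed by their number in the cluster and by their cluster. Low numbers are used toward the head and high numbers toward the tail and the tips of the limbs. Of 36 Hox genes tested, 18 were higher and 15 lower in 3KR cells, with a median of 0.25. Among 20 genes numbered 1 to 8, 14 were lower and 3 higher (Hoxc6, Hoxc8 and Hoxd8), with a median of -0.69. The 14 lower genes were all of clusters a and b, and in clusters c (median 0.25) and d (median 0.36) none with these numbers was lower. Among 16 genes numbered 9 to 13, 15 were higher and only Hoxb9 was lower, with a median of 1.48. The grouping by number was made after the values were seen.

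Hoxd13, the last gene of its cluster, had 171, 219 and 192 normalized counts in wild-type and 1302, 1259 and 1298 in 3KR samples (2.72, adjusted p = 1.87e-19 by edgeR). Hoxa10 had 204, 230.5 and 221 against 764, 744 and 789.9 (1.81). Hoxa13 had 41.0, 36.0 and 44.8 against 259, 264 and 258 (2.68). In each the 3KR samples lay several-fold above the wild-type samples. Hoxa5 had 598, 596 and 725 against 211, 190.2 and 237 (-1.58), and Hoxa3 had 659, 612 and 575 against 176, 181 and 196 (-1.74), where antisense transcripts of the cluster overlap. The 3KR samples were lower throughout for these anterior genes. All 7 tested genes numbered 1 to 8 of cluster a (median -1.35) and all 7 of cluster b (median -0.92) were lower. Hoxb9, the exception among the high numbers, had 2875, 2883 and 3176 against 1948, 1917 and 1966 (-0.61), in the direction of its b cluster neighbours, whereas Hoxb13 was near 0 in wild-type (0, 0 and 0.995) and present in all 3KR samples (6.08, 19.8 and 12.4). Hoxd3, Hoxc4 and Hoxc5 were not called.

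**Figure D2:**
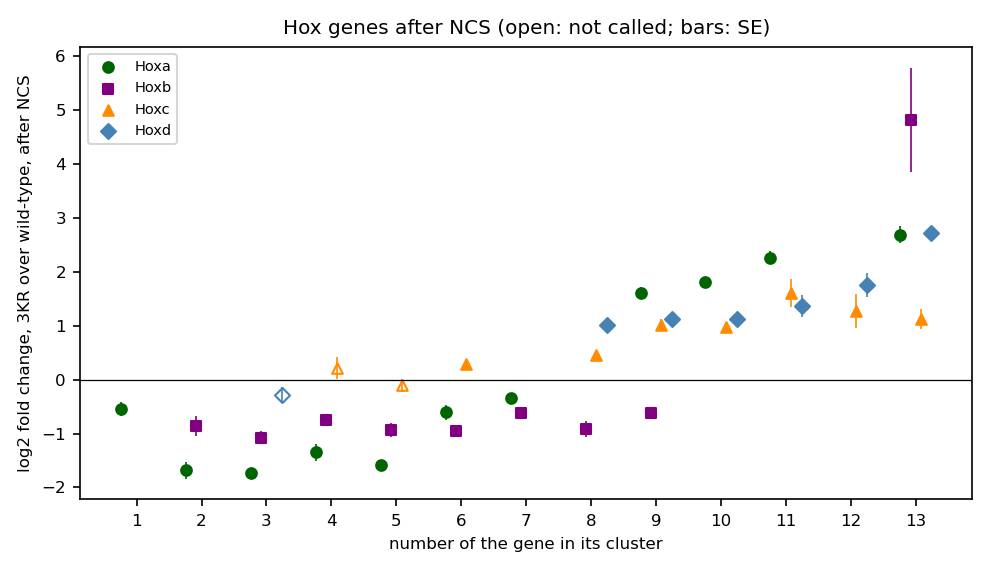
Log2 ratio of 3KR to wild-type after NCS with standard errors for Hox genes of the a, b, c and d clusters, by number in the cluster, with open marks for genes not called. Values under 0 prevail up to number 8 in clusters a and b, and values above 0 from number 9 on except for Hoxb9, such as 2.72 for Hoxd13. The highest mark, Hoxb13, is a ratio to wild-type samples at the floor.

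Regional transcription factors beyond the Hox clusters varied in both directions. Of 64 tested, 28 were higher and 26 lower, with a median of -0.03, and 16 were over 2-fold higher and 13 over 2-fold lower. The higher genes included Tbx4, Pitx1 and Tbx5, given before, and Isl1 (3.91), Lmx1b (2.63) and Lhx2 (2.45). The lower genes included Foxd1 and Pax3 (-2.34). Zic1, which is active in dorsal neural tube and somites, had 1768, 2014 and 2002 normalized counts in wild-type and 614, 630.0 and 575 in 3KR samples (-1.67), and it adjoins Zic4 on the opposite strand. It was lower in each 3KR sample. Isl1, Lmx1b, Lhx2 and Pax3 were chosen after their values were seen.

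Axon guidance genes, which also act in vessels and mesenchyme, were more often lower. Of 62 tested, 33 were lower and 17 higher, with a median of -0.27. The higher count was close to the share of 23.4% over all autosomal genes. The membrane-anchored semaphorin gene Sema7a (-1.22) and the netrin receptor gene Unc5c (-1.10), which has an antisense partner, were lower. Slit3, a secreted ligand of Robo receptors (1.27), and Ephb2, an ephrin receptor (0.93), were higher. Cadherins and protocadherins, which join cells of like type, had 8 higher and 13 lower of 29, with a median of -0.22. Their higher count was close to the share of 23.4% over all autosomal genes. Cdh3, P-cadherin, had 1309, 1287 and 1268 normalized counts in wild-type and 3929, 3855 and 3923 in 3KR samples (1.60). It was higher in every 3KR sample, as was Pcdh18 (0.65). Pcdh1 (-2.07) and Pcdh20 (-2.21) were lower.

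Signals that pattern mesenchyme differed in ligands, receptors and inhibitors alike. Of 45 genes of Wnt ligands, receptors and inhibitors, 16 were higher and 20 lower, with a median of -0.18. Among ligands, Wnt2 was lower (-1.48). Lgr5, a receptor for R-spondins, had 246, 211 and 180.1 normalized counts in wild-type and 1478, 1489 and 1489 in 3KR samples (2.81, adjusted p = 1.36e-19 by edgeR). The secreted inhibitor genes went in opposite directions. Sfrp2 had 216, 176 and 184 against 1319.5, 1162 and 1297 (2.72), and Sfrp4 had 1011, 1037 and 996 against 316, 272 and 303 (-1.77). In none of these genes did the groups overlap. BMP and TGF-beta signaling had 13 higher and 20 lower of 45 and a median of -0.10. Its higher count was close to the share of 23.4% over all autosomal genes. The activin receptor Acvr2a (0.68), which overlaps Orc4, was higher, whereas the BMP antagonist Grem1 (-0.95) and the activin subunit Inhba (-0.51) were lower.

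Growth factor genes were mainly lower, with 29 of 47 lower and 10 higher and a median of -0.35, the lowest median of the 30 pathway lists. The higher count was close to the share of 23.4% over all autosomal genes. Igf2, the fetal growth factor, had 58954, 58953 and 56879.9 normalized counts in wild-type and 29850.5, 30624 and 30301 in 3KR samples (-0.95). It was lower by about the same amount in each 3KR sample, with Igf2os on the opposite strand. Pdgfra, the receptor of platelet-derived growth factors on mesenchymal cells, had 4682, 4573 and 4711 against 13569.8, 13127 and 12902 (1.50, adjusted p = 6.61e-21 by edgeR). Its ligand genes Pdgfa (-0.89) and Pdgfb (-1.46) were lower, both chosen after their values were seen. The heparin-binding factor Ptn was higher (1.50).

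Immediate-early genes, which respond within minutes to growth signals and stress, included 9 higher and 16 lower of 32, with a median of -0.10. Their higher count was close to the share of 23.4% over all autosomal genes. Egr1, a zinc-finger factor, had 3860.3, 3734 and 3448 normalized counts in wild-type and 4965, 5220.1 and 5254 in 3KR samples (0.48, adjusted p = 8.18e-10 by edgeR). The 3KR samples were higher, and the nuclear receptor gene Nr4a2 differed in the same direction (0.87). The ERK phosphatase genes Dusp6 (-0.68) and Dusp5 (-0.81) were lower. Clock genes had 10 higher and 4 lower of 20, with a median of 0.26. Their lower count was close to the share of 24.2% over all autosomal genes. The repressors Nr1d1 (0.48), which overlaps Thra, and Nfil3 (0.34) were higher, and Cry1 (-0.36), Csnk1e (-0.22), Arntl (-0.20) and Clock (-0.18) were lower.

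Lists of metabolism and protein synthesis had medians near 0. Of 41 Nrf2 and glutathione genes, 15 were higher and 15 lower, 3 of them over 2-fold higher and 1 over 2-fold lower, with a median of 0.03. The glutathione transferase Gsta4 (1.63) and the extracellular dismutase Sod3 (1.09) were higher, and the peroxidase Gpx3 (-0.74) and heme oxygenase Hmox1 (-0.33) were lower. Cholesterol synthesis had 7 higher and 7 lower of 26 (median 0.02), also close to the shares of 23.4% and 24.2% over all autosomal genes, including Dhcr7 (0.35) and Fdps (0.30) on the higher side and Hsd17b7 (-0.43) and Msmo1 (-0.41) on the lower side. Glycolysis had 13 higher and 4 lower of 22 (median 0.12). Pkm (0.28) and Tpi1 (0.27) were among the higher genes, and Ldhb (-0.80), Pfkm (-0.35), Pfkp (-0.28) and Hk2 (-0.12) were lower. The unfolded protein and amino acid response had 15 higher and 3 lower of 28 (median 0.12), with the ATF4 targets Trib3 (0.95) and Shmt2 (0.55) higher and the chaperone genes Creld2 (-0.19), Dnajb11 (-0.12) and Canx (-0.07) lower. Tpi1, Pfkp and Shmt2 overlap genes on the other strand.

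Ribosomal protein genes were called in 1 direction only, 47 higher of 72, with a median of 0.16. Rps24 had 5509, 5134 and 4620.2 normalized counts in wild-type and 7464, 7428 and 7304 in 3KR samples (0.54), and Rpl17 differed by 0.36. Wild-type sample 3 was the lowest for Rps24, and all 3KR samples were above all wild-type samples. Without that sample 23 of the list were called higher, and without NCS-treated 3KR sample 1 the count was 31. Processed pseudogenes resemble these genes, which makes their counts less certain. Of 68 oxidative phosphorylation genes, 15 were higher, close to the share of 23.4% over all autosomal genes, and 1 was lower, against 24.2%, with a median of 0.06. The complex I subunits Ndufs6 (0.25), overlapping Mrpl36, and Ndufs7 (0.19) were higher, and the complex III subunit Uqcrfs1 was lower (-0.12). The higher count was 5 without NCS-treated wild-type sample 3, 7 and 9 without NCS-treated 3KR samples 1 and 2, and 23 without a low-count filter. The lower count was 0 without NCS-treated 3KR sample 1 or 3 or wild-type sample 2, 2 without NCS-treated wild-type sample 3 and 7 without both wild-type samples numbered 3.

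**Figure D3:**
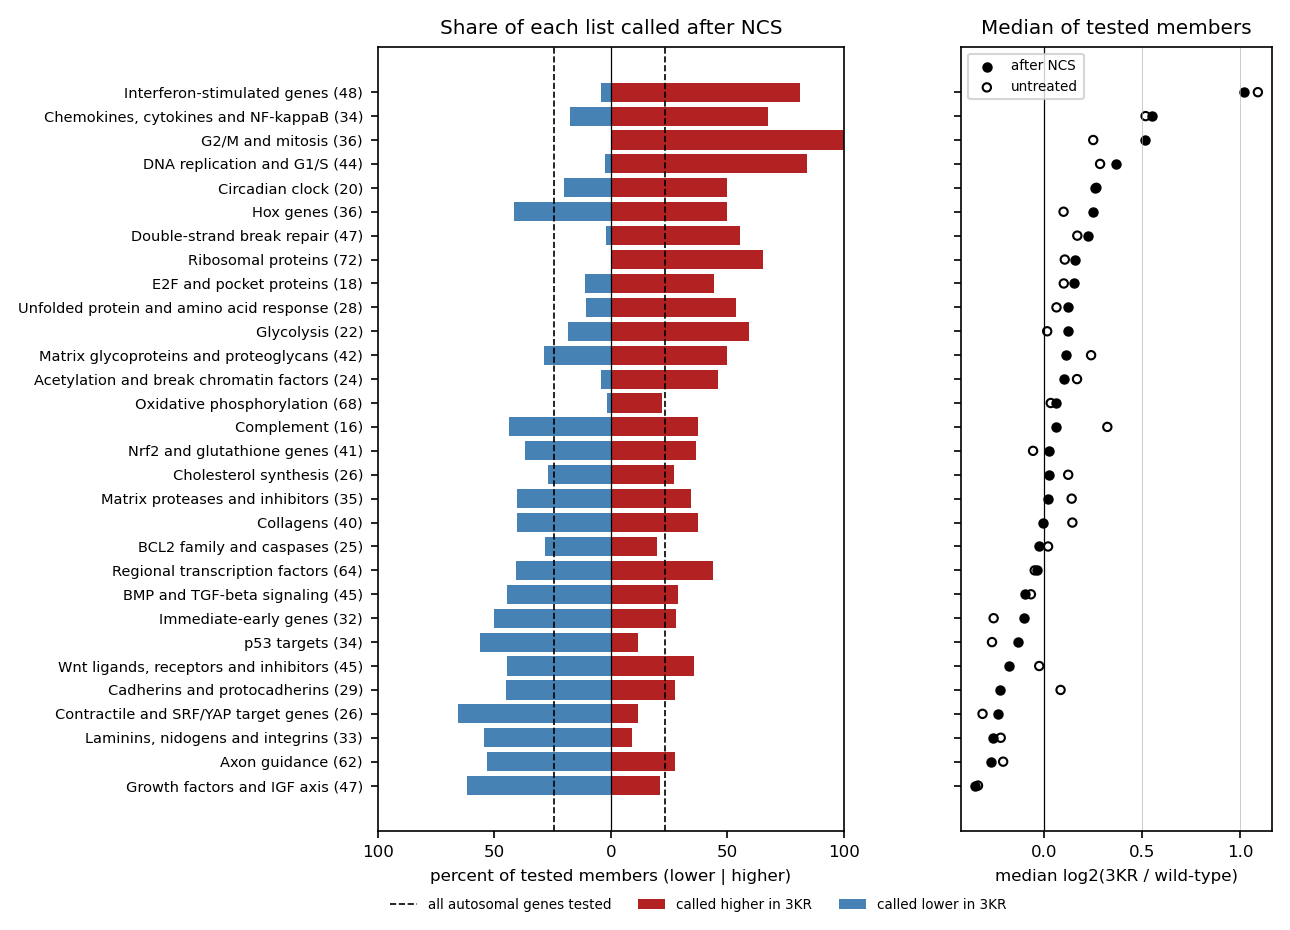
Percent of tested members of the 30 gene lists called lower (left) and higher (right) in NCS-treated 3KR MEFs, with dashed lines at 24.2% and 23.4% over all autosomal genes, beside the median log2 fold change after NCS (filled) and without treatment (open). The interferon-stimulated list has the highest median, 1.02, and the growth factor list the lowest, -0.35.

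Most of the difference between genotypes was also present without treatment. In untreated cells, 6636 autosomal genes were called (46.6%), 3229 higher (22.7%) and 3407 lower (23.9%). Of the genes called after NCS, 5115 were called in untreated cells as well, and 5081 of these in the same direction, 75.1% of the NCS calls and 76.6% of the untreated calls. These comparisons use different libraries, but the labels do not say whether the cultures were shared. Of the genes over 2-fold different after NCS, 885 (77.9%) were so without treatment, and none was over 2-fold in the opposite direction. Cxcl5 differed by 3.98 untreated and 4.26 after NCS, Tbx4 by 3.55 and 3.82, and Tnn by 3.20 and 3.30. For the lists, the untreated medians were 1.09 for interferon-stimulated genes, 0.25 for G2/M, 0.28 for DNA replication and -0.27 for p53 targets.

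A difference of the genotype effect between treatments was tested as an interaction of genotype and treatment. The interaction was called for 543 genes (3.81%), 267 above 0 (1.87%) and 276 below 0 (1.94%), and 448 of these were under 0.50 on the log2 scale. Leaving out wild-type sample 3 of both treatments raised the count to 1742, which included 534 of the 543, and leaving out only the untreated one raised it to 1101. Without NCS-treated wild-type sample 1, NCS-treated 3KR sample 1 or 3, or untreated 3KR sample 1 or 3 it was between 330 and 356. Of the 543 genes, 248 had a smaller genotype difference after NCS than untreated, 159 a larger one and 136 opposite signs, with 34 called in opposite directions.

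The G2/M list contributed 23 genes with an interaction above 0, all with a larger excess in 3KR cells after NCS than before, and the count was 13 to 15 without any 1 of the 3KR samples. Bub1b is an example (interaction 0.38 on the log2 scale). Of 34 p53 targets, 9 had an interaction above 0, and these were less far below wild-type after NCS than before, except that Gtse1 went from below to above, but 4 or 5 were called without NCS-treated 3KR sample 1 or untreated 3KR sample 1 or 3. Immediate-early genes had 9 of 32 above 0. Growth factor genes had 10 of 47 below 0. Matrix glycoproteins had 12 of 42 below 0 and 3 above 0. Their count above 0 was 1 without NCS-treated 3KR sample 1 or untreated 3KR sample 3. No Hox gene, DNA replication gene or ribosomal protein gene was called for the interaction in the main fit. Without untreated wild-type sample 3, 18 ribosomal protein genes and 2 DNA replication genes were called above 0. Without both wild-type samples numbered 3, the counts above 0 were 22 ribosomal protein genes, 2 Hox genes and 1 DNA replication gene. Ribosomal protein genes called above 0 were 9 without a low-count filter and 2 with a block for the replicate number. For DNA replication the count was 1 in both of these fits and by the Wald test. Without a filter 2 Hox genes were called above 0 and 1 below, and 1 was called above 0 without untreated wild-type sample 2 and 1 below without untreated wild-type sample 1.

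Single genes with the lowest p-values for the interaction show how the values moved. Egr1 had 7666, 7801 and 8258 normalized counts in untreated wild-type samples and 6126, 6139 and 6054 in untreated 3KR samples, so that it was lower in untreated and higher in NCS-treated 3KR cells (interaction 0.86, SE 0.0566, adjusted p = 4.38e-09 by edgeR). The long noncoding RNA Neat1, which builds paraspeckles, had 13260.3, 13417 and 12332 in untreated wild-type and 13321, 13185 and 13326 in untreated 3KR samples. After NCS it had 12439, 12249 and 13246 in wild-type and 19138, 18850 and 19371 in 3KR samples, so only the treated 3KR samples were high (0.57, adjusted p = 9.98e-08). Inhba had 15969, 16222 and 17887 in untreated wild-type and 7975, 7815 and 8101 in untreated 3KR samples, and after NCS 19870.3, 19435 and 21124 in wild-type and 14277, 13999.9 and 14076 in 3KR samples (0.56). It was lower in 3KR cells in both treatments, by less after NCS. The same held for Il11 (0.87) and for the transferrin receptor gene Tfrc (0.52).

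In the other direction, Il1rn, the antagonist of interleukin-1 receptors, had 7899, 8208 and 7923 normalized counts in untreated wild-type and 9063, 8529 and 9114 in untreated 3KR samples. After NCS the values were 6037, 6059 and 5889 in wild-type and 4383, 4413 and 4360 in 3KR samples, so the 3KR samples went from higher to lower (interaction -0.60, adjusted p = 4.81e-08 by edgeR). Eln, the gene for elastin, had 7526, 7571 and 6902 in untreated wild-type and 14473, 15021 and 14547 in untreated 3KR samples, and after NCS 7249, 7390.3 and 7095 in wild-type and 9237, 9564 and 9262 in 3KR samples (-0.63). The excess of elastin transcripts in 3KR cells was thus smaller in treated cells, as it was for the matricellular gene Ccn3 (-0.67) and the pentraxin gene Ptx3 (-0.58). Peg3, an imprinted gene expressed from the paternal allele, had 3656, 3712 and 3821 in untreated wild-type and 4759.6, 4741 and 4722 in untreated 3KR samples, and after NCS 4363, 4445 and 4350.5 in wild-type and 4149, 4078 and 3991 in 3KR samples (-0.45). It was higher in 3KR samples without treatment and lower after it.

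**Figure D4:**
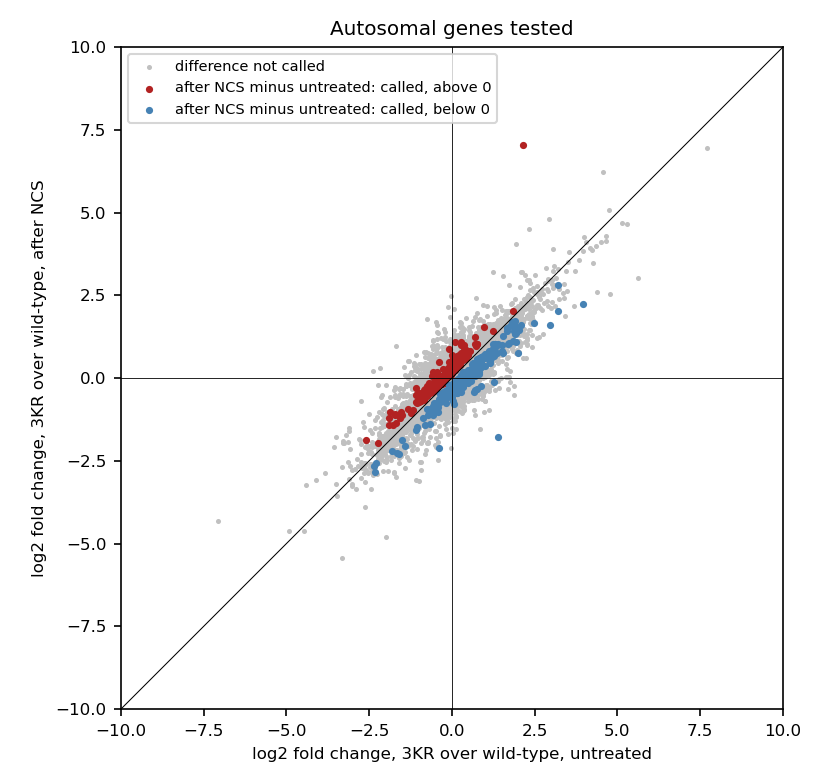
Log2 ratio of 3KR to wild-type without treatment (horizontal) and after NCS (vertical) for autosomal genes, with colour for genes with a called interaction above 0 (267) and below 0 (276) and the line of equal values. Most genes lie along the line, and coloured genes lie off it by less than 0.50 in 448 of 543 cases.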

How the data were processed

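The data are raw counts of sequenced reads per Ensembl gene identifier, 1 file per sample, as deposited by the authors. The submitters' processing notes name TopHat, HTSeq and DESeq and the build mm9 without roles or versions, and they do not say whether the counting used the strand. Of 37991 identifiers, 32938 were matched to GENCODE M21, from which symbols, chromosomes and strands were read. Levels at or under 3 counts were taken as the floor. All tests ran in R 4.3.3 with edgeR 4.0.16: filterByExpr on the 4 groups, TMM normalization, 1 coefficient per group over 12 samples, quasi-likelihood F tests on both tails, and Benjamini-Hochberg adjustment over 15327 genes on all chromosomes with a threshold of 0.05. The common biological coefficient of variation was 3.95%. Size factors came from DESeq2 1.42.0.

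The comparison, the 30 pathway lists, the 10 marker lists and the rule for named genes were chosen with earlier results of these data known. The rule names the 12 largest fold changes per direction and the 5 most abundant genes over 2-fold per direction, with means of at least 100 normalized counts and no overlap, the 2 lowest p-values per list and direction, the study's genes, the sex-linked genes, and the 5 lowest interaction p-values per direction. Some genes under it are not reported here. Genes outside it, members of small counts and extremes of lists were chosen after their values were seen. Of 1196 pathway list entries, 1188 were found in the files, and the others are not analysed here. Alternatives were DESeq2 size factors, the DESeq2 Wald test, other filters, the 6 samples alone, the replicate number as a block, and each sample left out in turn. The steps were tried on simulated counts. Promoters came from RefSeq on GRCm38.p6.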

Additional observations from a re-analysis of the deposited data

Results flagged for a closer look

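Over all autosomal genes tested, 543 differed between genotypes by a different amount after NCS than without treatment. Among the genes named above, the interaction on the log2 scale was above 0 for Egr1 (0.86), Il11 (0.87), Neat1 (0.57), Inhba (0.56), Tfrc (0.52), Ptgs2 (0.51), Nr4a2 (0.46), Bub1b (0.38), E2f7 (0.36, not called in most fits with 1 sample left out), Sema7a (0.35), Slc20a1 (0.34), Dusp6 (0.31), Ccn2 (0.28), Nfil3 (0.26), Shmt2 (0.22), Mki67 (0.20), Il1rl1 (0.18), Col2a1 (0.17) and Cdkn1a (0.16). It was below 0 for Ccn3 (-0.67), Eln (-0.63), Il1rn (-0.60), Acvr2a (-0.59), Ptx3 (-0.58), Peg3 (-0.45), Lgr5 (-0.41), Gbp2 (-0.40), Ptn (-0.39), Pcdh20 (-0.39), Col14a1 (-0.31), Msmo1 (-0.27), Angpt2 (-0.26), Pcdh18 (-0.22), Hmox1 (-0.22), Postn (-0.19), Igf2 (-0.18), Pdgfra (-0.16), Lamc1 (-0.16), Col6a3 (-0.14) and Fn1 (-0.14). Among the genes listed here, the genotype difference changed sign between treatments for Egr1, Il1rn and Peg3. The untreated difference of Neat1 was near 0, and the other listed genes kept their sign. Gtse1, named above but not listed here, also had an interaction above 0. Its genotype difference went from below to above wild-type. The cause of these interactions was not tested. Interaction values of single genes were followed through the alternative fits for 10 genes only, the 5 lowest p-values per direction. Apart from E2f7, how the calls of the others held was not examined gene by gene.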

How the results depend on the processing

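Across alternative fits, the count of genes called after NCS was 5970 to 7338 (6770 as reported). It was 5970 to 6490 with 1 NCS-treated sample left out. With the 6 samples alone it was 6737, and with a block for the replicate number 6917. The block joins samples of both genotypes that share a number. Their deviations from the group means after NCS were nearly uncorrelated (mean correlation 0.007). Genes over 2-fold different were 1065 to 1228, and 1147 with the block. The untreated count was 5955 to 7198, and 6796 with the block. The interaction count was least stable, 330 to 1101 with 1 sample left out, 1742 without both wild-type samples numbered 3, 670 with the block, 750 without a filter and 630 by the Wald test. It could not be fitted with only 6 samples. Fold changes near 0 changed sign. With 1 sample left out, E2f1 ranged from -0.050 to 0.017 on the log2 scale, Smarca4 from -0.032 to 0.023, Nbn from -0.048 to 0.0026 and untreated Neat1 from -0.011 to 0.046. E2f1 was 0.012 without NCS-treated wild-type sample 3, and without both wild-type samples numbered 3 E2f1 was 0.011, Smarca4 0.022 and untreated Neat1 -0.0054. Calls of Ep300, Mre11a, Mylk, Ccne1, Uqcrfs1 and Lig4 were lost in some fits. Crebbp (0.14) was called without both wild-type samples numbered 3. The groups hold 3 samples each, differ in sex as well as genotype, and the 3KR line goes back to 1 founder. Whether they also differ in litter or colony is not stated.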

Other observations

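Genes whose genotype difference turned around between treatments included early response and sterol genes, chosen after their values were seen. Fos, a subunit of AP-1, differed by -0.56 untreated and 0.19 after NCS. Nfkbiz, a nuclear regulator of NF-kappaB, differed by -0.44 and 0.19. Both were lower in untreated and higher in NCS-treated 3KR cells. The opposite order was seen for Insig1, which holds sterol sensing in the endoplasmic reticulum (0.41 untreated, -0.12 after NCS) and for the cholesterol exporter Abca1 (0.34 and -0.26). These genes were called in both treatments.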
